A study of Mus musculus with 14 samples.

Results

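Expression of 10 genes of the Notch pathway was followed on mouse arrays: the receptor genes Notch1, Notch2, Notch3 and Notch4, the ligand genes Jag1, Jag2 and Dll1, and the target genes Hes1, Hey1 and Nrarp. A probe set, a group of array probes read as 1 value, was taken when the platform annotation named only 1 of these genes. This gave 19 probe sets for the 10 genes, out of 45037 probe sets that are not controls. Notch4 and Jag1 had 3 probe sets each, Notch1, Notch2, Notch3, Jag2 and Nrarp had 2 each, and Dll1, Hes1 and Hey1 had 1 each.

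The cells were SCp2, a single mouse mammary epithelial line, so the data describe 1 line in culture and not a tissue. MMP3-treated dishes received the protease MMP-3 for 3 days, and control dishes were kept in parallel for the same time, all 35 mm wide and in DMEM with 2% fetal calf serum. Experiment A had an MMP3 and a control dish at each of 50K, 100K and 250K cells plated, 6 arrays, and experiment B had the same with 25K added, 8 arrays. The labels tie dishes only by experiment, and each experiment had 1 dish per agent and density, without replicate dishes. Within an experiment SEs and p-values thus rest on how far dishes depart from a straight line in log2 density. Over all arrays, differences between A and B at the same agent and density add to this. With 14 arrays the number of arrays limits the precision.

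Notch receptors are membrane proteins that bind ligands of the Jagged and Delta families on a neighbouring cell. Binding leads to cleavage of the receptor, first by an ADAM protease and then by gamma-secretase, and the freed intracellular part joins the DNA-binding protein RBPJ in the nucleus to switch on targets such as the HES and HEY repressors. In the mammary gland the pathway is known for its part in luminal cell fate. Ligand and receptor sit on cells that touch.

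Promoter sequence is shown for Notch3, the receptor with the widest range on these arrays, and for Nrarp, a target that encodes a feedback inhibitor of Notch signalling. These are the 2 genes with a probe set whose MMP3 arrays all lay above the controls in experiment B. That held for 2.68% of all probe sets. The sequences are from RefSeq on GRCm38.p6 and end at the base before the annotated start, and capitals mark a motif match.
Notch3 (chr17:32166891-32167010, minus strand): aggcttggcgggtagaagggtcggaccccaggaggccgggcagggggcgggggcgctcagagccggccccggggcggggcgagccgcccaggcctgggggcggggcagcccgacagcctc
Nrarp (chr2:25180638-25180757, plus strand): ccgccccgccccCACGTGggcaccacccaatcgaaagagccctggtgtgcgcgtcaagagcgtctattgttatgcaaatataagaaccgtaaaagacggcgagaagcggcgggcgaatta

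The RefSeq promoter table matched 8 of the 10 genes with 9 windows (2 for Dll1), each from 250 bases before to 50 after the start, and Hes1 and Hey1 are named only. Both strands were searched for the RBPJ core TGGGAA, its longer form GTGGGAA, which contains the core, and for 2 sites of the HES and HEY type, CACGTG, which reads the same on both strands, and CACGCG. Neither RBPJ form was in any of the 9 windows, while 25.6% of all 32851 windows held TGGGAA and 6.38% held its longer form. The site CACGTG was in the Nrarp window only, at position -108 counted from the start, and in 7.15% of all windows. CACGCG was in windows of Jag1, Jag2, Dll1 and Notch2 and in 9.27% of all windows. A match is a string of letters and was not tested for binding.

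The values are relative log2 expression, with each probe set's median over the 14 arrays at 0, so they show differences between arrays and no level, and the labelled cell type could not be checked against the level of its markers. Arrays of experiment B went against their labels in part, as judged by the difference seen in A. Ifit1, an interferon-induced gene, was between 2.83 and 4.21 on the MMP3 arrays of A and between -2.98 and -2.91 on its controls, but in B it was 4.53 and 5.15 on MMP3 50K and 250K, -2.83 and -2.97 on MMP3 25K and 100K, 3.71 and 4.26 on control 50K and 250K, and -2.93 on both control 25K and control 100K. In B Ifit1 was thus low at 25K and 100K and high at 50K and 250K under both agents. It followed neither agent nor the order of the densities. Over the 27022 more variable probe sets, the MMP3 minus control difference of A correlated with the values on MMP3 25K, 50K, 100K and 250K of B at r = -0.66, 0.67, -0.37 and 0.38, and with those on the controls of the same densities at -0.57, 0.69, -0.75 and 0.73. With the difference of A, from 3 dishes per agent, as the reference, MMP3 25K and 100K and control 50K and 250K thus went against their labels. Whether another reference would give the same was not tested. The doubt touches every MMP3 value of B and of all arrays. The array labelled MMP3 100K of B also stood apart in spread, with an SD over probe sets of 0.869 against 0.232 to 0.412 on the other 13. Results that use B are therefore given beside those of A alone, and without the MMP3 100K array where it matters.

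**Figure D1:**
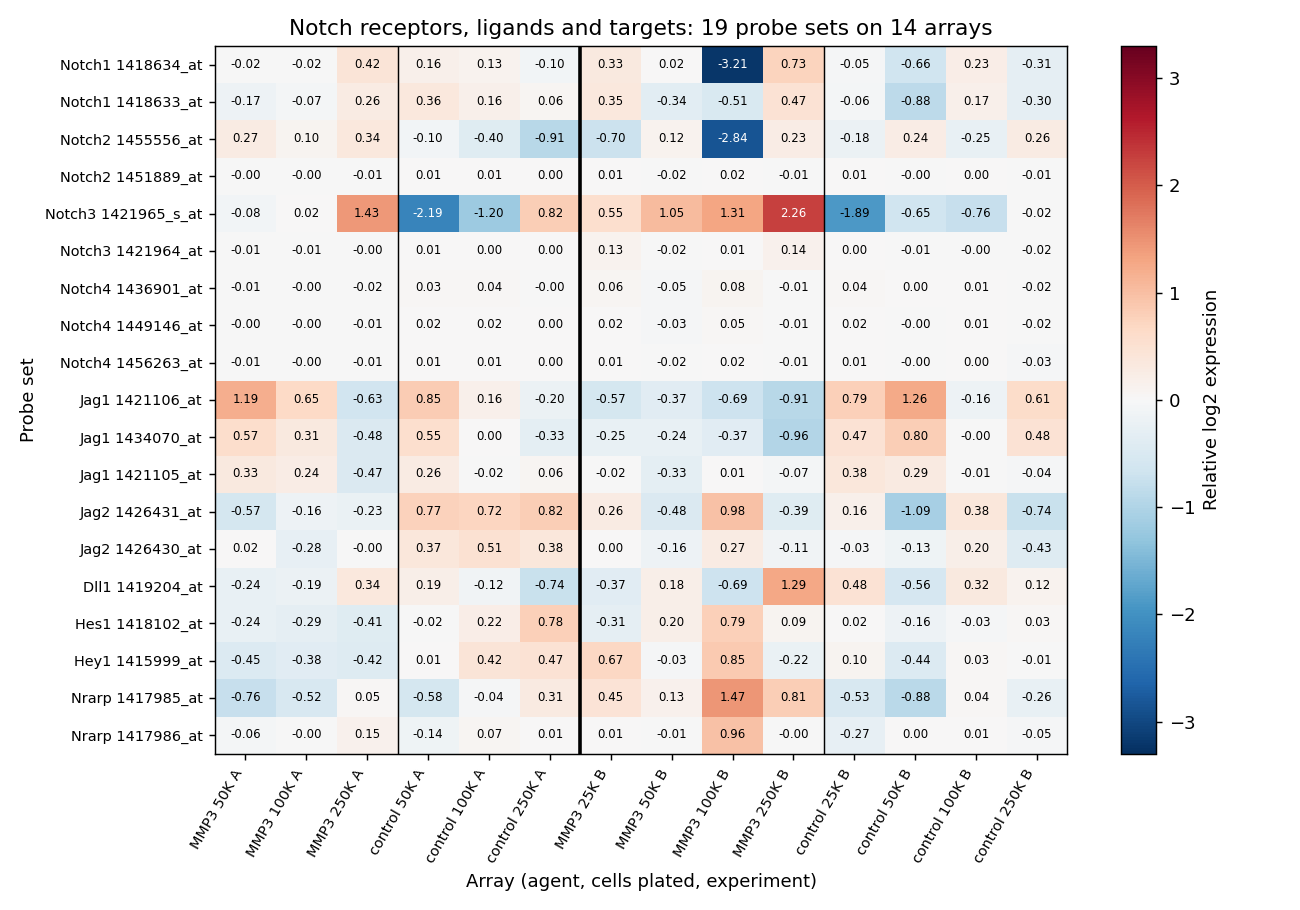
Relative log2 expression (colour and printed value) of the 19 probe sets (rows) on each of the 14 arrays (columns, MMP3 before control within experiment A and then B, density from low to high). Notch3 1421965_s_at runs from -2.19 to 2.26, while its partner 1421964_at and the 3 Notch4 probe sets stay near 0, and the MMP3 100K array of B holds the lowest values of Notch1 1418634_at and Notch2 1455556_at.

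Of the receptors, Notch3 read higher on the arrays labelled MMP3, by probe set 1421965_s_at. The difference passed over all arrays but not within A or B, and the doubt about the labels of B applies to it. Probe set 1421965_s_at read -0.08, 0.02 and 1.43 on the MMP3 arrays of experiment A at 50K, 100K and 250K, against -2.19, -1.20 and 0.82 on the controls at the same densities. In experiment B it read 0.55, 1.05, 1.31 and 2.26 on the MMP3 arrays from 25K to 250K, against -1.89, -0.65, -0.76 and -0.02 on the controls. MMP3 was above control in 7 of 7 pairs of the same density and experiment, which held for 2.18% of all probe sets, and Notch3 1421965_s_at was the only one of the 19 with this. The groups did not overlap in B, where 2.68% of all probe sets had every MMP3 array above every control. In A they did, since control 250K lay above MMP3 50K and 100K.

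Over all 14 arrays, with density, its product with agent, and experiment in the model, Notch3 1421965_s_at was 1.77 higher with MMP3 on the log2 scale (SE 0.26), a 3.42-fold rise, at an adjusted p of 0.0375 (limma). It was the 1 member probe set of 19 called in this comparison, in which 0.619% of all probe sets were called (0.3% of all as higher). With each matched pair as a block the difference was the same and the adjusted p was 0.0843 (limma), with no experiment block it was 0.0991 (limma), and with any 1 of 14 arrays left out the call was lost in 10 cases (limma adjusted p between 0.0149 and 0.144) while the difference stayed between 1.58 and 2.01. The call was kept without MMP3 100K of A, control 250K of A, MMP3 100K of B or control 50K of B. In each of the 10 fits that lost it, no probe set of the whole array passed. Without the MMP3 100K array of B it was 1.78 (adjusted p = 0.0271, limma).

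Within each experiment the Notch3 difference did not pass over all probe sets. It was 1.31 in A (SE 0.26, adjusted p = 0.128, limma) and 2.12 in B (SE 0.20, adjusted p = 0.312, limma), where no probe set of the array passed and 3230 had an unadjusted p under 0.05. The experiments themselves differed by -0.71, A minus B (SE 0.56, adjusted p = 0.591, limma). So no difference in size between A and B was shown, and the standard error leaves room for one.

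Notch3 values were highest at 250K under both agents in both experiments and lowest at the lowest density plated. Per doubling of plated cells the fitted slope over all arrays was 0.65 (SE 0.12), 0.52 (SE 0.16) with MMP3 and 0.78 (SE 0.16) in controls. Within A it was 0.67 with MMP3 and 1.31 in controls (SE 0.19 each), and within B 0.50 under both agents (SE 0.11 each). The slope over all arrays did not pass (adjusted p = 0.195, limma), in a comparison where no probe set was called, 0% of the array, and 3242 had an unadjusted p under 0.05. The slopes of the agents differed by -0.27, MMP3 minus control (SE 0.23, adjusted p = 0.997, limma).

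The other Notch3 probe set, 1421964_at, showed none of this range. It read -0.01, -0.01 and 0.00 on the MMP3 arrays of A, against 0.01, 0.00 and 0.00 on the controls, and 0.13, -0.02, 0.01 and 0.14 on the MMP3 arrays of B, against 0.00, -0.01, 0.00 and -0.02 on the controls. Only MMP3 25K and MMP3 250K of B stood above the rest, by about 0.1. Its SD over the 14 arrays was 0.05, at the 40.6th percentile of all probe sets, against 1.29 and the 99.2nd percentile for 1421965_s_at. The MMP3 minus control difference was larger for 1421965_s_at in each of the 7 pairs, by 0.61 to 2.31 and by 1.74 ± 0.62 on average (SD, n = 7 pairs, exact sign-flip permutation test, two-sided, p = 0.0156, the smallest 7 pairs can give). Since 1421964_at hardly varied, this test nearly repeats the 7 pair differences of 1421965_s_at itself and is no separate support for them. The values of both probe sets correlated with r = 0.41 over the 14 arrays. The Notch3 result therefore rests on 1 of 2 probe sets, and the suffix _s_at marks a set that can match more than 1 transcript.

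**Figure D2:**
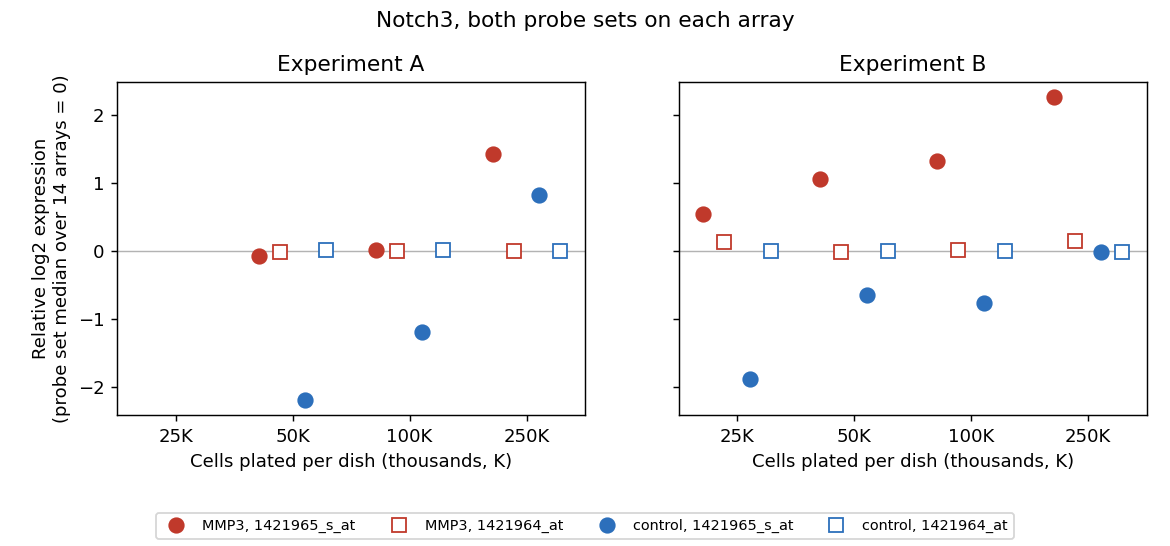
Relative log2 expression of Notch3 on each array against the number of cells plated, for probe set 1421965_s_at (filled circles) and 1421964_at (open squares), MMP3 in red and control in blue, 1 array per point. At each density the filled MMP3 point lies above the filled control point, by 0.60 to 2.44, and the open squares stay between -0.02 and 0.14.

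Notch3 is also a marker of mural cells, the pericytes and smooth muscle cells of vessels, so the other mural markers were read beside it. The 7 others (Rgs5, Pdgfrb, Cspg4, Myh11, Des, Abcc9 and Kcnj8) had SDs of 0.015 to 0.039 over the 14 arrays, and their MMP3 differences were between -0.02 and 0.001, with none called. In A 3 of the 32 cell type markers were called, each gene read by its most variable probe set. There 4.11% of all probe sets were called, and 1271 of 18193 genes when each was read by 1 probe set. The 3 calls are thus near the background. Epcam (1.18, SE 0.02, adjusted p = 0.0191, limma) and Cdh1 (0.89, SE 0.04, adjusted p = 0.0334, limma) were higher with MMP3. The basal keratin Krt5 was lower (-1.03, SE 0.03, adjusted p = 0.0234, limma). The other luminal and epithelial markers, Krt8, Krt18 and Krt19, stood at 0.002, -0.01 and -0.02 in A. The other basal markers, Krt14 and Trp63, stood at -0.38 and -1.44 and were not called. In B Epcam, Cdh1 and Krt5 stood at 0.004, -0.28 and 0.05 (SE 0.46, 0.41 and 0.42), with none called. Of the mural markers, none of the 7 was among the probe sets whose SD lay at or above the 40th percentile. In bulk RNA fewer cells of a type and less RNA per cell cannot be told apart. A sign of RNA quality, the Gapdh 3′ control less its 5′ control, was 0.04 to 0.17 on the MMP3 arrays of A and -0.03 to 0.03 on its controls, but overlapped in B, at -0.02 to 0.06 with MMP3 and -0.06 to 0.14 in controls. The same measure of the transferrin receptor control was 0.43 to 1.69 on the MMP3 arrays of A and -0.13 to 0.39 on its controls, without overlap, and -1.43 to 0.44 with MMP3 and -0.12 to 0.50 in controls of B. The part of these markers and controls in the Notch3 result, and in those of the other members in A, was not tested.

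The genes most like Notch3 1421965_s_at over the 14 arrays, among 18192 other genes, were Arsa (r = 0.99), which encodes the lysosomal enzyme arylsulfatase A, Snx13 (r = 0.98), a sorting nexin, Rhoq (r = 0.98), a small GTPase, Itm2b (r = 0.98), a membrane protein, and Naxe (r = 0.98), an enzyme that repairs NADH and NADPH. Each is the best of its gene's probe sets, chosen for its r from all genes of the array. The points share arrays, experiments and normalization, so these r values only describe a shared course over the arrays, and no member of the Notch pathway was among the 5.

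The remaining receptors did not pass in any comparison. Notch1, the receptor best known from T-cell development, differed over all arrays by 0.07 for 1418633_at (SE 0.22) and -0.16 for 1418634_at (SE 0.55), both at an adjusted p of 0.964 (limma). For 1418634_at the MMP3 arrays of A read -0.02, -0.02 and 0.42, against 0.16, 0.13 and -0.10 on the controls. In B the MMP3 arrays read 0.33, 0.02, -3.21 and 0.73 from 25K to 250K, against -0.05, -0.66, 0.23 and -0.31 on the controls. The value of -3.21 is that of the MMP3 100K array, on which 1418633_at read -0.51. The probe sets correlated with r = 0.63 over 14 arrays and r = 0.90 without that array. Without it the B difference of 1418634_at was 0.57 (SE 0.29), against -0.34 (SE 1.03) with it, and neither passed (adjusted p = 0.657 and 1, limma).

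Notch2 resembled Notch1 in this. Probe set 1455556_at read 0.27, 0.10 and 0.34 on the MMP3 arrays of A, against -0.10, -0.40 and -0.91 on the controls, without overlap, the MMP3 arrays lying above. That held for 10% of all probe sets and 1 of the 19, and for 16.7% of those with more spread (SD at or above the 40th percentile) and 1 of 15 members. With an adjusted p of 0.0693 (limma) the difference in A, 0.71 (SE 0.08), missed the threshold. In B it read -0.70, 0.12, -2.84 and 0.23 on the MMP3 arrays, against -0.18, 0.24, -0.25 and 0.26 on the controls. The value on MMP3 100K was again the lowest, and the B difference was -0.81 (SE 0.81) with that array and -0.10 (SE 0.23) without it. The second Notch2 probe set, 1451889_at, had an SD of 0.011 and ran against the first (r = -0.61). Together with the 3 probe sets of Notch4, a receptor known from endothelium, it made up the 4 member probe sets below the 40th percentile of SD, with all values between -0.05 and 0.08. Whether Notch4 and this Notch2 probe set were near background is not known, since the table holds no level.

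**Figure D3:**
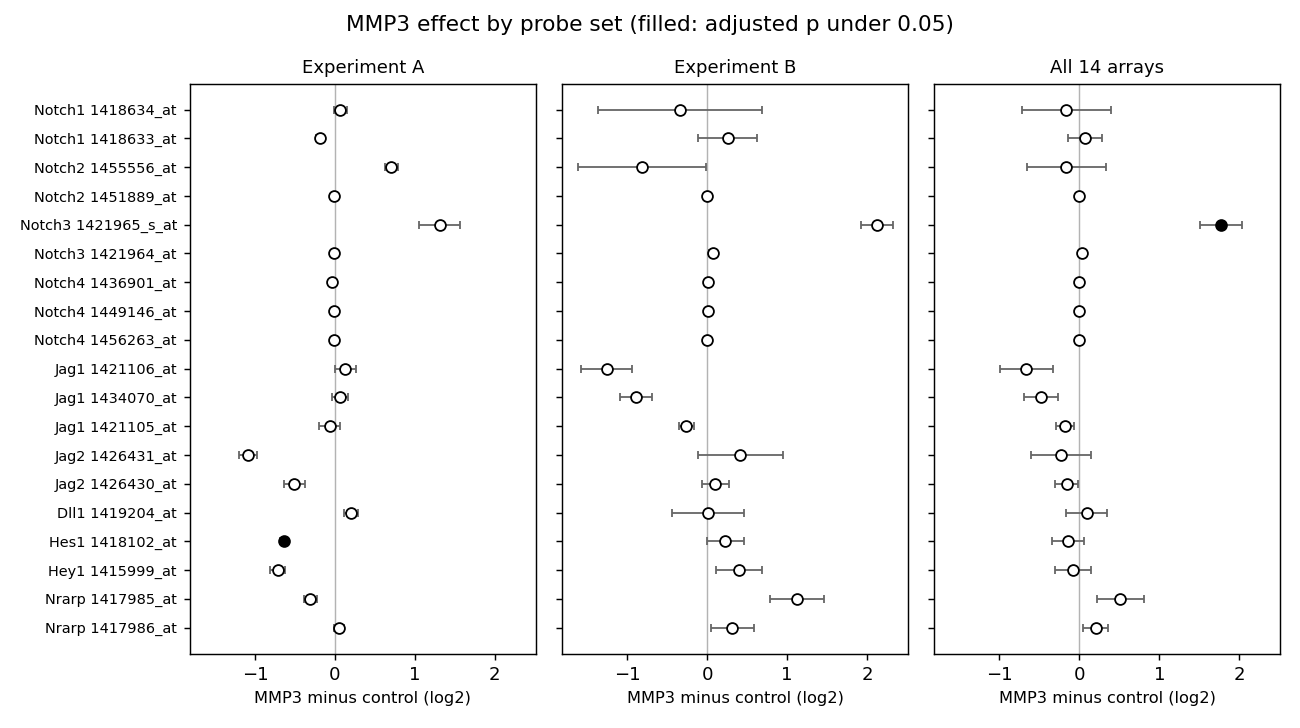
MMP3 minus control on the log2 scale (points, bars 1 SE, limma) for the 19 probe sets in experiment A, in experiment B and over all 14 arrays, with filled points for adjusted p under 0.05. Notch3 1421965_s_at is to the right of 0 in all 3 panels (1.31, 2.12 and 1.77), Jag2 is to the left in A and to the right in B, and Jag1 1421106_at is near 0 in A and to the left in B.

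Among the ligands, Jag1 and Jag2 encode Jagged proteins, and no ligand passed in any comparison. Jag1 1421106_at read 1.19, 0.65 and -0.63 on the MMP3 arrays of A from 50K to 250K, against 0.85, 0.16 and -0.20 on the controls. In B it read -0.57, -0.37, -0.69 and -0.91 on the MMP3 arrays from 25K to 250K, against 0.79, 1.26, -0.16 and 0.61 on the controls. In A the values overlapped and ran down with density, while in B every MMP3 array lay below every control. The difference was 0.13 in A (SE 0.14, adjusted p = 0.466, limma) and -1.26 in B (SE 0.32, adjusted p = 0.463, limma), and A minus B was 1.36 (SE 0.50, adjusted p = 0.462, limma).

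The other Jag1 probe sets followed 1421106_at with r = 0.96 for 1434070_at and r = 0.77 for 1421105_at. Their differences in B were -0.89 (SE 0.20) and -0.26 (SE 0.10), and 1434070_at did not overlap between agents either. MMP3 below control on all arrays of B held for 2.9% of all probe sets and for 2 of the 19, both of Jag1, which are not independent of each other. The Jag1 slope with density in A was -0.62 per doubling for 1421106_at (SE 0.07) and -0.42 for 1434070_at (SE 0.05), and over all arrays -0.29 (SE 0.15) and -0.22 (SE 0.10). Within B they were smaller, -0.14 (SE 0.13) and -0.14 (SE 0.08). None passed (adjusted p between 0.188 and 0.954, limma). Their signs were opposite to those of the Notch3 slopes, which were not called either.

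Jag2 1426431_at read -0.57, -0.16 and -0.23 on the MMP3 arrays of A, against 0.77, 0.72 and 0.82 on the controls, and was 1.09 lower with MMP3 (a log2 difference of -1.09, SE 0.11, adjusted p = 0.0608, limma). The groups did not overlap, but the difference did not pass. In B it read 0.26, -0.48, 0.98 and -0.39 on the MMP3 arrays from 25K to 250K, against 0.16, -1.09, 0.38 and -0.74 on the controls. There 25K and 100K lay above 50K and 250K under both agents, the reverse of Ifit1 on the same arrays. The B difference was 0.41 (SE 0.53) and A minus B was -1.61 (SE 0.48, adjusted p = 0.449, limma). Without MMP3 100K of B they were 0.10 (SE 0.49) and -1.30 (SE 0.44). The second probe set, 1426430_at, had the same signs, -0.51 in A (SE 0.13) and 0.10 in B (SE 0.17), and correlated with the first at r = 0.83.

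Dll1, a Delta-type ligand, read -0.24, -0.19 and 0.34 on the MMP3 arrays of A, against 0.19, -0.12 and -0.74 on the controls, and -0.37, 0.18, -0.69 and 1.29 on the MMP3 arrays of B, against 0.48, -0.56, 0.32 and 0.12 on the controls. In A it ran up with density on the MMP3 arrays (0.26 per doubling, SE 0.07) and down on the controls (-0.41, SE 0.07). Over all arrays the slopes differed by 0.49, MMP3 minus control (SE 0.22, adjusted p = 0.997, limma), and by 0.51 (SE 0.17, adjusted p = 0.94, limma) without MMP3 100K of B. No probe set of the array was called for this difference in slope, 0% of them, against 822 at an unadjusted p under 0.05.

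Of the targets, Hes1 read lower on the MMP3 arrays of experiment A, by a call that depended on the model and processing. Hes1 encodes a repressor that Notch switches on directly. It read -0.24, -0.29 and -0.41 on the MMP3 arrays from 50K to 250K, against -0.02, 0.22 and 0.78 on the controls, without overlap, and the gap widened with density. The widest gap rests on control 250K, whose 0.78 stood apart from -0.16 to 0.22 on the other controls of A and B. The difference at the mean density was -0.64 (SE 0.04, adjusted p = 0.0412, limma). By pair it was -0.21, -0.51 and -1.19 from 50K to 250K. The model takes up this spread as a difference in slope, and the SE leaves it out. Hes1 was the 1 member called of 19 in A, where 4.11% of all probe sets were called and 1.71% were called lower, so a single call is near the background. MMP3 below control on all arrays of A held for 43.5% of all probe sets, 25.2% of the 27022 with SD at or above the 40th percentile, and 5 of the 15 members among those. Array medians were -0.010 to -0.001 on the MMP3 arrays of A and 0.001 to 0.016 on the controls, and with each array centred on its median the Hes1 difference was -0.62 (adjusted p = 0.0581, limma).

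The Hes1 difference was the same -0.64 without the product of agent and density in the model and with each matched pair as a block, but its SE was then 0.21 and 0.25 and the call was lost (adjusted p = 0.193 and 0.233, limma). With any 1 of the 6 arrays of A left out it stayed between -0.67 and -0.56, in fits with 1 residual degree of freedom that called no probe set of the array. In B Hes1 read -0.31, 0.20, 0.79 and 0.09 on the MMP3 arrays, against 0.02, -0.16, -0.03 and 0.03 on the controls. The B difference was 0.23 (SE 0.23, adjusted p = 1, limma) and 0.04 (SE 0.13) without MMP3 100K. A minus B was -1.05 (SE 0.33, adjusted p = 0.449, limma).

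Hey1, a repressor related to Hes1, had a similar course. It read -0.45, -0.38 and -0.42 on the MMP3 arrays of A, against 0.005, 0.42 and 0.47 on the controls, and 0.67, -0.03, 0.85 and -0.22 on the MMP3 arrays of B, against 0.10, -0.44, 0.03 and -0.005 on the controls. The groups did not overlap in A and did in B. MMP3 below control on all arrays of A held for 43.5% of all probe sets, and for 25.2% of the more variable ones. The difference was -0.72 in A (SE 0.09, adjusted p = 0.0735, limma) and 0.40 in B (SE 0.29, adjusted p = 1, limma), and neither passed.

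Nrarp 1417985_at, whose promoter carries the CACGTG shown above, read -0.76, -0.52 and 0.05 on the MMP3 arrays of A, against -0.58, -0.04 and 0.31 on the controls. In B it read 0.45, 0.13, 1.47 and 0.81 on the MMP3 arrays, against -0.53, -0.88, 0.04 and -0.26 on the controls. In A it ran up with density under both agents, by 0.36 per doubling (SE 0.04, adjusted p = 0.187, limma), and in B every MMP3 array lay above every control, which held for 2.68% of all probe sets and for 2 of the 19, Notch3 1421965_s_at being the other. The difference was -0.31 in A (SE 0.08, adjusted p = 0.18, limma) and 1.12 in B (SE 0.33, adjusted p = 0.535, limma), and A minus B was -1.48 (SE 0.33, adjusted p = 0.449, limma). Without MMP3 100K of B, which held the highest value, they were 0.89 in B (SE 0.26) and -1.21 for A minus B (SE 0.25). The second probe set, 1417986_at, was between -0.27 and 0.15 on 13 arrays and 0.96 on MMP3 100K of B, and its B difference was 0.32 with that array and 0.07 without it.

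**Figure D4:**
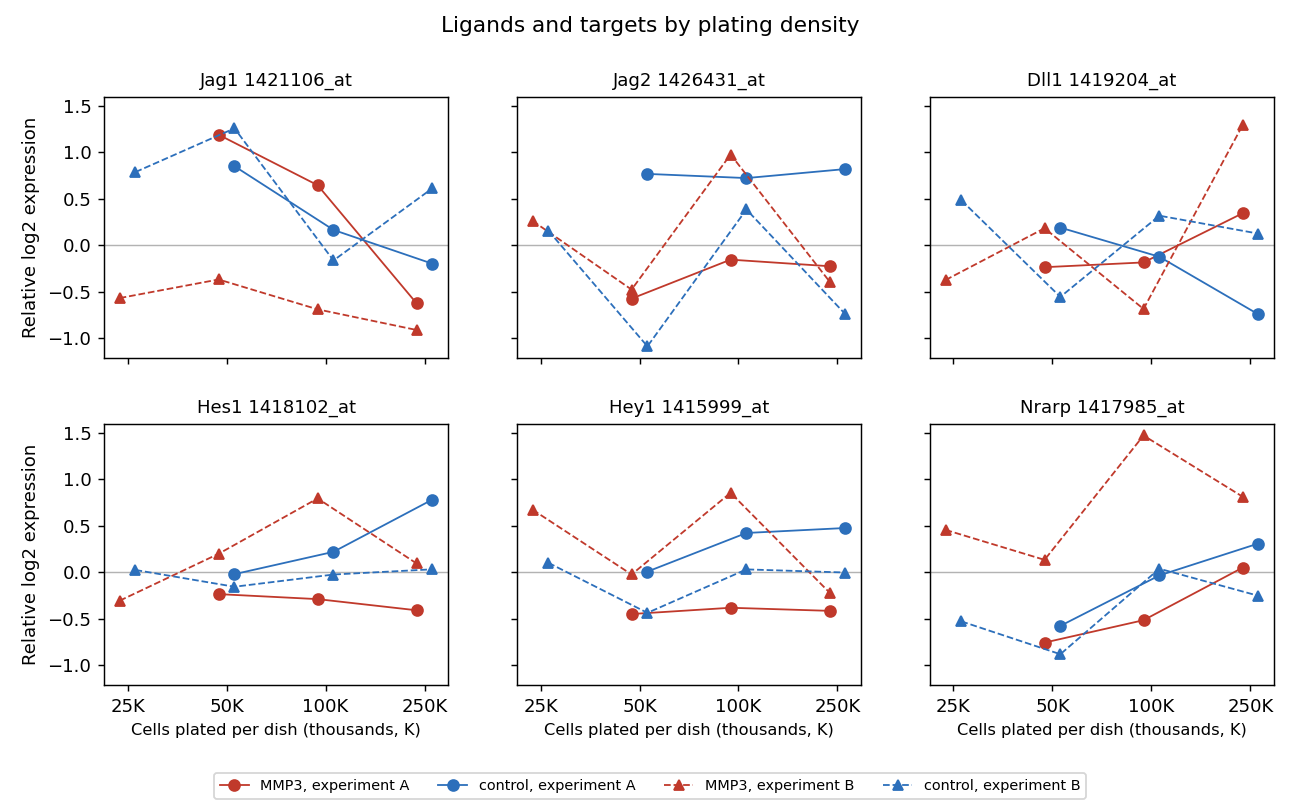
Relative log2 expression of 3 ligand and 3 target probe sets against the number of cells plated, MMP3 in red and control in blue, experiment A as circles with solid lines and experiment B as triangles with dashed lines, 1 array per point. For Jag2, Hes1 and Hey1 the MMP3 points of A lie below the control points of A, and for Nrarp the MMP3 points of B lie above the control points of B.

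At an unadjusted p under 0.05 the MMP3 difference over all arrays held 2 of the 19 probe sets, against 10.1% of all. In A it held 8 of 19, against 23% of all, and in B 5 of 19, against 7.17% of all. The density slope held 2 of 19 over all arrays (7.2% of all), 6 in A (15.7%) and 1 in B (3.12%), and the difference in slope between agents held 0 (1.83%). No member lay below control in 7 of 7 pairs (2.38% of all), and none had MMP3 arrays all above the controls (0.02%) or all below (0.0822%) in both experiments.

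For the MMP3 effect of A minus that of B, 7 of the 19 probe sets had an unadjusted p under 0.05, against 10.1% of all probe sets and 4487 of the 27022 more variable ones. None of the 7 passed after adjustment (0% of all were called). They were 1 probe set each of Hes1, Hey1 and Nrarp, both of Jag2, and 2 of Jag1, so probe sets of the same gene are counted more than once. The median difference over the 19 was -0.06, against -0.02 over all probe sets.

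The rest of the pathway was read from a list of 43 genes, of which 40 had a probe set of their own (the others were not analysed here) and 31 had an SD at or above the 40th percentile, each gene by its most variable probe set. In experiment A 1 of the 40 rose (2.41% of all probe sets were called higher, and 780 of 18193 genes when each was read by 1 probe set) and none fell, so that this single call is near the background, and over all arrays, in B and for density none was called. The gene that rose was Numb, which encodes an adaptor that inhibits Notch. It read 0.46, 0.35 and 0.46 on the MMP3 arrays of A, against -0.29, -0.41 and -0.53 on the controls, a difference of 0.83 (SE 0.04, adjusted p = 0.0352, limma). In B it read -0.27, 0.40, -0.61 and 0.44 on the MMP3 arrays from 25K to 250K, against -0.29, 0.27, -0.49 and 0.39 on the controls, high at 50K and 250K under both agents as Ifit1 was.

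The median MMP3 difference of the 40 was 0.02 in A and 0.02 over all arrays, against -0.02 and -0.005 over all probe sets. By class, the 8 measured proteases and gamma-secretase genes had a median of 0.35 in A and 0.31 over all arrays (range 0.10 to 0.72, none called), with Aph1a, a gamma-secretase subunit, at 0.38 over all arrays (SE 0.07, adjusted p = 0.0541, limma). The nuclear genes had medians of -0.02 in A and 0.0001 over all arrays, with Kat2b, a histone acetyltransferase, at 1.82 in A (SE 0.16, adjusted p = 0.0529, limma), 0.16 in B (SE 0.71) and 0.87 over all arrays (SE 0.48). Among the other HES and HEY genes Hes6, which counteracts Hes1, stood at 1.40 in A (SE 0.14, adjusted p = 0.0583, limma), 0.44 in B (SE 0.59) and 0.85 over all arrays (SE 0.35). These 3 did not pass and were named after their values were seen.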

How the data were processed

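RNA of 14 dishes was hybridised to Affymetrix Mouse 430 2.0 arrays, 200 ng of total RNA each, per the labels' protocols. The authors deposited 1 table of log2 values made with RMA, per the submitters' processing notes. No source used here gives the version, log base or centring. All 45101 probe sets had a median of 0 (within 1e-06), and the log2 base is the one RMA gives. Array medians ran from -0.02 to 0.03. A higher value was taken as more signal, which no source states.

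Of 45037 probe sets that are not controls, 34945 had 1 symbol, 932 several and 9160 none in the platform annotation, and symbols were updated by Entrez identifier for 34741. All 45037 were fitted with limma 3.58.1 in R 4.3.3 (lmFit, eBayes, Benjamini-Hochberg over all, threshold 0.05), with agent, centred log2 density, their product and, across experiments, experiment as a block. Within A and B 2 and 4 residual degrees of freedom were left, and 9 over all arrays. The difference between experiments used the 12 arrays at 50K to 250K with density as a factor. The code was tested on simulated data. The experiment letter is in the labels. Deviations from group means correlated at 0.05 on average between arrays of 1 experiment (-0.65 to 0.64).

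Values on every array are given for all Notch3 probe sets, for any member called, and for the most variable probe set of other members. Up to 4 called pathway genes per class and the 5 genes most like Notch3 are named. Notch4, which varied least, is given by its range. Members and lists were chosen with earlier results of these data known. Promoters were searched in Python 3.11.15. Alternatives were a filter on SD at the 40th percentile (0.05), 1 probe set per gene, array centring, array weights, models without the product or the block, matched pairs as a block, and each array left out.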

Additional observations from a re-analysis of the deposited data

Results flagged for a closer look

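Each of the 38 groups formed by 1 of the 19 probe sets and the 7 arrays of 1 agent was searched for an array far from the other 6. Densities and experiments are pooled in these groups, and chance alone marks about 1 in 20. The array labelled MMP3 100K of experiment B gave 3 of the 5 found. On it Notch1 1418634_at read -3.21, against -0.02 to 0.73 on the other MMP3 arrays, and Notch2 1455556_at read -2.84, against -0.70 to 0.34. Nrarp 1417986_at was at 0.965 there, against -0.06 to 0.15. The same array had the widest spread of all 14 over probe sets (SD 0.869) and an actin 3′ minus 5′ difference of 0.65, against -0.34 to 0.19 on the other 13. Hes1 1418102_at read 0.780 on control 250K of experiment A, against -0.16 to 0.22 on the other controls. Notch4 1456263_at read -0.0266 on control 250K of experiment B, against -0.001 to 0.013, a distance too small to interpret.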

How the results depend on the processing

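The count of member probe sets called was 1 for MMP3 over all arrays and 1 in A, and 0 in the other 6 comparisons. Over all arrays it was 0 with no replicate block and 0 with matched pairs as replicate block, and 0 to 1 with an array left out. In A it was 5 with the SD filter (Hes1, Hey1, Notch2 1455556_at, Notch3 1421965_s_at and Jag2 1426431_at), 0 with arrays centred, 0 with matched pairs as replicate block and 0 to 0 with an array left out, where 1 residual degree of freedom remains and no probe set of the whole array passes, so these fits say nothing on stability. Without the product of agent and density the member called in A was Jag2 1426431_at (adjusted p = 0.0323, limma) and not Hes1. Array quality weights gave 10 over all arrays, 6 in B, 6 for density over all arrays and 5 for density in B, at weights of 0.0415 (MMP3 100K of B) to 5.79 (control 25K of B), and then called 28236 of 45037 probe sets for MMP3 over all arrays against 279 with equal weights. The whole-table count for MMP3 in A was 1853, against 963 with arrays centred and 5379 of 27022 with the SD filter. Over all arrays it was 0 with no replicate block, 14 with matched pairs as replicate block, 94 with arrays centred, 589 of 27022 with the SD filter, and 0 to 1302 with an array left out (1302 without MMP3 100K of B). The larger Notch3 difference of 1421965_s_at over 1421964_at was 1.64 to 1.93 with any pair left out (exact p = 0.0312 each, the smallest 6 pairs can give), and centring arrays cannot move it. Of 150 uncalled values, 73 changed sign under at least 1 setting, 60 of them with an array left out.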
